A study of Mus musculus with 12 samples.

Results

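The 4 midbrain libraries described here set mouse astrocytes that received shPTB, a hairpin RNA directed at PTB, and were held for 4 weeks in neuronal differentiation medium (2 libraries) against mock astrocytes in growth medium (2 libraries). They were chosen by their titles and are 4 of the 12 libraries of the series, which holds 6 groups of 2: cortex and midbrain astrocytes, each as mock and at 2 and 4 weeks of shPTB. All cells were labelled as C57BL/6 astrocytes, and no age, purification step or hairpin sequence is in the labels. The hairpin, the change of medium and the weeks in culture differ together between the groups, so their parts cannot be told apart. The series asked how far astrocyte gene expression gives way to neuronal gene expression after PTB depletion, and 14607 genes were tested for that contrast in midbrain.

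PTB (gene Ptbp1) binds RNA and holds back the splicing of neuronal exons in cells that are not neurons. It keeps its neuronal paralogue, nPTB (Ptbp2), low by promoting an exon-skipped transcript that is degraded. The repressor REST binds neuronal genes with cofactors such as RCOR1 and is held in a loop with PTB through microRNAs. Midbrain astrocytes line a region that holds dopamine neurons, which are marked by tyrosine hydroxylase (Th), the dopamine transporter (Slc6a3) and regulators such as Nr4a2 and Pitx3.

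The libraries held 11272975 and 11385761 estimated reads in mock and 8843602 and 9048543 at 4 weeks. Mitochondrially encoded RNA made up 16.9 and 18.3% of reads in mock and 36.4 and 37.2% at 4 weeks. Levels are given as CPM, read counts per 1000000 reads of the TMM-scaled library, so they compare a gene between libraries and not genes with each other. The 4-week libraries agreed almost to counting noise (median chi-square per gene 0.709, against 0.455 from counting alone), whereas the mock libraries did not (7.17). The difference between mock libraries 1 and 2 in midbrain correlated across genes with the same difference in cortex (r = 0.715 over the genes tested, which are not independent replicates), so the mock libraries with the same number deviate together in both regions. Nothing in the labels says that the libraries of a group are separate cultures. The p-values measure a spread between libraries estimated over all 6 groups together, and that spread may be technical. The estimate pools the tight 4-week libraries with the wide mock libraries. The length of the transcripts that Salmon assigned also moved with the groups: the median gene's read-weighted length was higher at 4 weeks by 0.59 on the log2 scale. The genes tested were also fitted with an offset for this length and with total-read scaling. For 4 weeks against mock a value from those fits stands beside a printed change whose call it alters. For Nlrc5, Cck, Dlx2, Dlx5, Dlx6, Tal1 and Pax6 no value from those fits is given, whether or not the call held. Whether counts in these libraries scale with transcript length was not tested. The offset therefore marks dependence on processing and is no correction. Beyond the genes that a rule on size names, individual members are named here that were chosen after their values were seen, to show how a list divided.

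At 4 weeks 2736 genes were higher than in mock (18.7% of those tested) and 2985 were lower (20.4%), at a Benjamini-Hochberg adjusted p under 0.05 of edgeR's quasi-likelihood test. Groups of genes moved in opposite directions. Most microglial, mitotic and matrix genes listed fell, all 13 mitochondrially encoded genes and 12 of 24 interferon-response genes rose, and astrocyte and pan-neuronal genes divided. With only the 4 libraries compared, 2031 genes were higher and 2339 lower. In the fit over all groups the median log2 fold change over all genes tested was -0.15. Scaling to total reads moved that median to -1.01 and the split to 1090 higher and 7238 lower of the 14607 genes. The counts of a gene list on that scale are given where its balance of calls shifted, and are to be read against this split. Fewer genes passed in all without either 4-week library or without mock library 1. A lower list count in those fits need not concern the list. Without 4-week library 1 or 2 the counts were 1762 and 1787 higher and 1543 and 1612 lower, in a fit that lets the remaining library vary like the other groups.

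**Figure D1:**
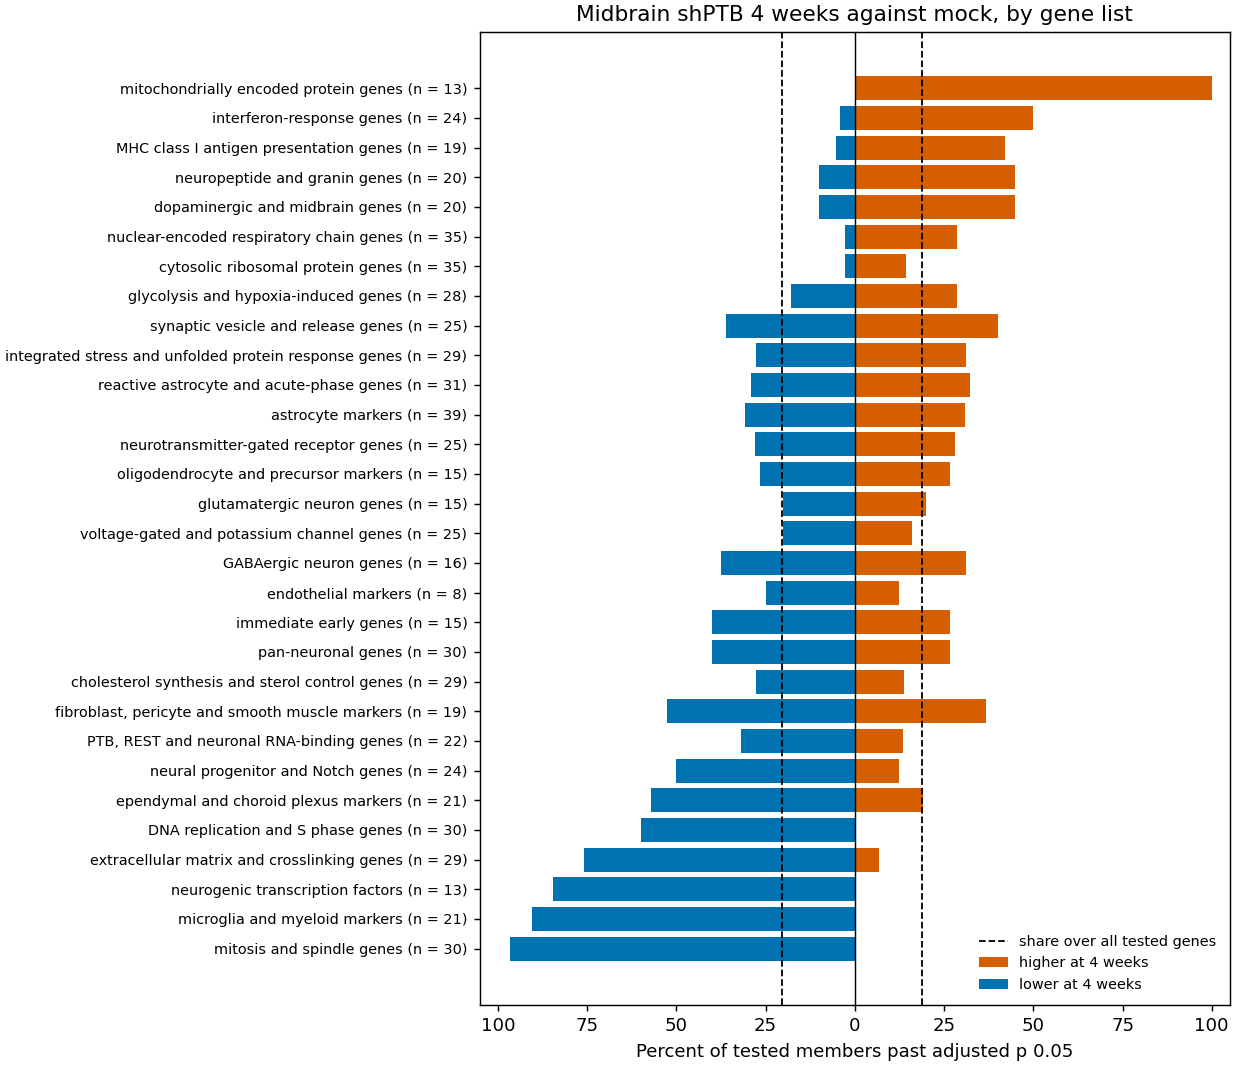
Share of tested members of 30 gene lists that passed the test at 4 weeks against mock in midbrain, higher to the right and lower to the left, with the shares over all tested genes as dashed lines. All 13 mitochondrially encoded genes lie to the right, and 29 of 30 mitosis genes and 19 of 21 microglia markers lie to the left.

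Ptbp1, the target of the hairpin (chromosome 10, 79854427 to 79864771, plus strand, GRCm38), stood at 208 and 250.0 CPM in the mock libraries and 169 and 155 CPM at 4 weeks. All 4-week values lay below all mock values, but the fall of 0.50 ± 0.20 (SE) on the log2 scale did not pass (edgeR adjusted p = 0.0744). The 2-week libraries were lower still, at 105 and 90.8 CPM. Scaling to total reads gave -1.36, adjusted p = 1.98e-05, and the stricter count filter gave -0.52, adjusted p = 0.0448. With an offset for transcript length there was next to no difference (-0.08, adjusted p = 0.872). Ptbp2 (chromosome 3, 119718742 to 119784466, minus strand) rose, with 6.46 and 8.15 CPM in the mock libraries and 23.8 and 25.4 CPM at 4 weeks (log2 fold change 1.75 ± 0.26 (SE), edgeR adjusted p = 0.000399). With the length offset its change no longer passed (0.53, adjusted p = 0.1). Ptbp3, the third paralogue, had 12.8 and 13.4 CPM in the mock libraries and 9.39 and 14.1 CPM at 4 weeks, and its 4-week values spanned the mock values (log2 fold change -0.16 ± 0.22 (SE), edgeR adjusted p = 0.585). It passed as a fall on the total-read scale (-1.03, adjusted p = 0.00536) and with the length offset (-1.16, adjusted p = 0.0235).

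Rest fell from 7.97 and 3.6 CPM to 1.93 and 1.74 CPM (log2 fold change -1.65 ± 0.49 (SE), edgeR adjusted p = 0.0205), though the call rested on few reads and on single libraries (adjusted p = 0.164 without mock library 1, 0.0933 without 4-week library 1 and 0.115 without 4-week library 2). Its cofactor Rcor1 fell from 14 and 22.5 CPM to 7.6 and 6.16 CPM (log2 fold change -1.41 ± 0.26 (SE), edgeR adjusted p = 0.00179), although with the length offset its sign turned (0.17, adjusted p = 0.832). Of the 22 of 24 listed PTB, REST and neuronal RNA-binding genes that were tested, 3 rose, 7 fell and 12 did not pass, with a median log2 fold change of -0.45. The neuronal RNA-binding genes in this list went different ways. Elavl3, which encodes a Hu protein of young neurons, had 27.8 and 30.3 CPM in the mock libraries and 6.08 and 7.77 CPM at 4 weeks (log2 fold change -2.07 ± 0.24 (SE), edgeR adjusted p = 7.88e-05). Celf4, a splicing and translation regulator of neurons, had 37.4 and 43.5 CPM in the mock libraries and 131 and 145 CPM at 4 weeks (log2 fold change 1.77 ± 0.26 (SE), edgeR adjusted p = 0.000359). 2 rose and 13 fell on the total-read scale, and the fit gave 3 lower without mock library 1, 2 lower without 4-week library 1 and 4 lower without 4-week library 2.

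Astrocyte markers did not move as a block. Of 39 of 40 tested, 12 rose, 12 fell and 15 did not pass, and the median log2 fold change was -0.09. 7 rose and 21 fell on the total-read scale, and the fit gave 6 lower without 4-week library 1 and 7 lower without 4-week library 2. The 39 markers were all still read at 4 weeks, and their summed level was 32550 and 35690 CPM in mock and 57790 and 55200 CPM at 4 weeks. Per 1000000 total reads the sum went the other way, with 53290 and 48870 in mock and 47320 and 45580 at 4 weeks. The most abundant markers weigh most in both sums. Gfap, the intermediate filament that marks astrocytes, had 9610.4 and 12579.5 CPM in the mock libraries and 8509.8 and 8014 CPM at 4 weeks, lower in both 4-week libraries but not past the threshold (log2 fold change -0.43 ± 0.28 (SE), edgeR adjusted p = 0.258). It passed on the total-read scale (-1.28, adjusted p = 5.02e-05).

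The markers that fell include the glutamate transporter Slc1a3, at 273 and 234 CPM in the mock libraries and 108 and 109 CPM at 4 weeks (log2 fold change -1.22 ± 0.17 (SE), edgeR adjusted p = 0.000242). The folate enzyme gene Aldh1l1 fell from 193 and 85.5 CPM to 29.6 and 30.4 CPM (log2 fold change -2.22 ± 0.39 (SE), edgeR adjusted p = 0.00121), a drop larger than the difference between the mock libraries. The protease inhibitor gene Cst3 had 519.7 and 586 CPM in the mock libraries and 52.9 and 52.5 CPM at 4 weeks (log2 fold change -3.39 ± 0.20 (SE), edgeR adjusted p = 6.77e-07). The groups stood about an order of magnitude apart for Cst3, with no overlap. Bulk RNA does not show which cells its reads came from. In the same contrast 19 of 21 microglia markers fell, and a link to Cst3 was not tested. Id3, an inhibitor of bHLH factors, fell by 3.06 on the log2 scale, and the Notch target Hes5 was 31-fold lower (interval 10.5 to 151) by summed reads, with 3 reads left at 4 weeks. The water channel gene Aqp4 fell less (log2 fold change -0.63 ± 0.20 (SE), edgeR adjusted p = 0.027), and so did the gap junction gene Gja1 (log2 fold change -0.97 ± 0.25 (SE), edgeR adjusted p = 0.0114). For Aqp4 the call was lost with only the groups compared (-0.63, adjusted p = 0.101) and with 1 library left out (adjusted p = 0.157 without mock library 2, 0.161 without 4-week library 1 and 0.109 without 4-week library 2), and for Gja1 with 1 library left out (adjusted p = 0.0599 without mock library 1, 0.0886 without 4-week library 1 and 0.0541 without 4-week library 2).

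Other astrocyte markers rose. Dio2, the deiodinase that activates thyroid hormone, went from 0.759 and 1.22 CPM to 54.3 and 51.2 CPM (log2 fold change 5.73 ± 0.26 (SE), edgeR adjusted p = 1.57e-07). Gjb6, which encodes connexin 30 of mature astrocytes, had 0.705 and 0.963 CPM in the mock libraries and 10.2 and 12.1 CPM at 4 weeks (log2 fold change 3.73 ± 0.42 (SE), edgeR adjusted p = 5.97e-05). S100b, a calcium-binding protein gene, rose from 1.68 and 2.12 CPM to 12.2 and 9.24 CPM (log2 fold change 2.49 ± 0.28 (SE), edgeR adjusted p = 6.01e-05). Each of these was low in mock and several times higher in both 4-week libraries. Sox9, a glial transcription factor, had 355 and 378 CPM in the mock libraries and 780.3 and 749.6 CPM at 4 weeks (log2 fold change 1.06 ± 0.19 (SE), edgeR adjusted p = 0.00124), which did not pass on the total-read scale (0.19, adjusted p = 0.183). Glul, the glutamine synthetase gene, had 205 and 321 CPM in the mock libraries and 756 and 798 CPM at 4 weeks (log2 fold change 1.56 ± 0.29 (SE), edgeR adjusted p = 0.00165), which did not pass with the length offset (0.11, adjusted p = 0.639). Clu, Ndrg2 and Cbs rose by 1.86, 1.44 and 2.05 on the log2 scale, and the rise of Clu did not pass with the length offset (0.74, adjusted p = 0.0508). Apoe, the main lipoprotein of astrocytes, had 11897 and 8079.7 CPM in the mock libraries and 19399 and 17831 CPM at 4 weeks (log2 fold change 0.90 ± 0.27 (SE), edgeR adjusted p = 0.021), a rise that did not pass on the total-read scale (0.00, adjusted p = 0.997), with only the groups compared (0.89, adjusted p = 0.116) or with some libraries left out (adjusted p = 0.0906 without mock library 2, 0.113 without 4-week library 1 and 0.0764 without 4-week library 2). Slc1a2, the other glial glutamate transporter, had 95.3 and 84.4 CPM in the mock libraries and 115 and 125 CPM at 4 weeks, and the groups did not overlap although the change missed the threshold (log2 fold change 0.42 ± 0.16 (SE), edgeR adjusted p = 0.0533). Its sign turned on the total-read scale (-0.46, adjusted p = 0.0695), and it passed with the length offset (0.55, adjusted p = 0.0291).

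**Figure D2:**
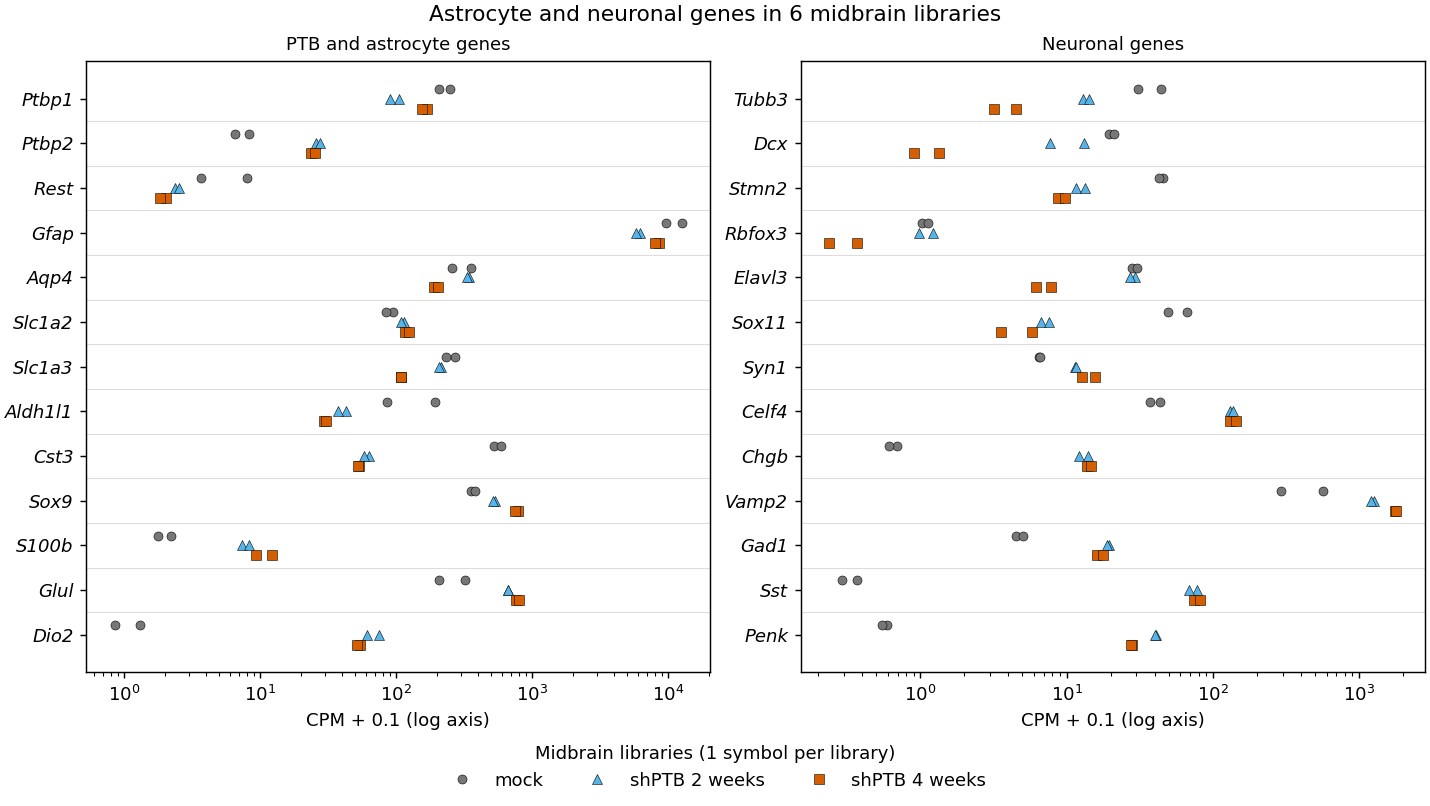
CPM (plus 0.1, log axis) of PTB, astrocyte and neuronal genes in the 6 midbrain libraries, 1 symbol per library, with mock as circles, 2 weeks as triangles and 4 weeks as squares. Tubb3, Dcx, Elavl3 and Slc1a3 are lowest at 4 weeks, whereas Dio2, Chgb, Sst and Penk are near 1 CPM or below in mock and at least 10 times higher in both shPTB groups.

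The pan-neuronal genes that fell include Tubb3, Dcx and Stmn2. Tubb3, the neuronal beta-tubulin used to mark conversion, had 30.7 and 43.9 CPM in the mock libraries and 4.42 and 3.08 CPM at 4 weeks (log2 fold change -3.31 ± 0.32 (SE), edgeR adjusted p = 2.22e-05). Dcx, a microtubule protein of migrating neurons, had 19.4 and 20.9 CPM in the mock libraries and 1.24 and 0.803 CPM at 4 weeks (log2 fold change -4.29 ± 0.33 (SE), edgeR adjusted p = 4.6e-06). Stmn2, a growth-cone protein gene, had 45.3 and 42.8 CPM in the mock libraries and 8.7 and 9.64 CPM at 4 weeks (log2 fold change -2.26 ± 0.19 (SE), edgeR adjusted p = 9.63e-06). In all 3 the 4-week libraries lay far below both mock libraries. Uchl1, a ubiquitin hydrolase abundant in neurons, fell from 226 and 225 CPM to 89.1 and 85.8 CPM (log2 fold change -1.36 ± 0.17 (SE), edgeR adjusted p = 0.000112). Rbfox3, which encodes the mature-neuron marker NeuN, was near the detection limit throughout, with 0.922 and 1.03 CPM in the mock libraries and 0.138 and 0.268 CPM at 4 weeks. By summed reads it was 4.76-fold lower (interval 1.49 to 24.2), and its call (edgeR adjusted p = 0.0299) was lost in each fit with 1 library left out (adjusted p = 0.0736 without mock library 1, 0.0729 without mock library 2, 0.178 without 4-week library 1 and 0.0885 without 4-week library 2). Map2, a dendritic protein gene, had 26 and 36.7 CPM in the mock libraries and 22.4 and 22.6 CPM at 4 weeks (log2 fold change -0.48 ± 0.20 (SE), edgeR adjusted p = 0.0865), and passed as a fall on the total-read scale (-1.33, adjusted p = 9.97e-05) and with the length offset (-1.08, adjusted p = 0.0461). Snap25, a release protein gene, stayed below 1 CPM in all 4 libraries (log2 fold change 0.34 ± 0.74 (SE), edgeR adjusted p = 0.744).

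Other genes of the same list rose. Chgb, a granin of secretory granules, went from 0.597 and 0.514 CPM to 13.7 and 14.6 CPM (log2 fold change 4.63 ± 0.27 (SE), edgeR adjusted p = 6.74e-07). Thy1, a surface protein of neurons that some mesenchymal cells share, had 531 and 563 CPM in the mock libraries and 2488 and 2365 CPM at 4 weeks (log2 fold change 2.15 ± 0.21 (SE), edgeR adjusted p = 2.89e-05). Eno2, the neuronal enolase, had 27.6 and 20.8 CPM in the mock libraries and 103 and 94.7 CPM at 4 weeks (log2 fold change 2.03 ± 0.21 (SE), edgeR adjusted p = 3.82e-05). In each case the 4-week libraries exceeded both mock libraries by several fold. Syn1, a synaptic vesicle phosphoprotein gene, rose from 6.35 and 6.48 CPM to 15.6 and 12.7 CPM (log2 fold change 1.14 ± 0.22 (SE), edgeR adjusted p = 0.00197), but not past the threshold on the total-read scale (0.27, adjusted p = 0.256). Of 30 of 34 pan-neuronal genes tested, 8 rose, 12 fell and 10 did not pass, with a median of -0.45. 4 rose and 16 fell on the total-read scale, and the fit gave 7 lower without 4-week library 2. The neurofilament gene Nefh had no read in any of the 4 libraries, and Nefl, with 2 and 3 reads in mock, and Elavl4, with 16 and 7, had none at 4 weeks. In bulk RNA, fewer cells of a type and less RNA per cell cannot be told apart.

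Synaptic vesicle and release genes were divided as well. Of 25 of 31 tested, 10 rose, 9 fell and 6 did not pass, with a median of 0.27. 5 rose and 13 fell on the total-read scale, and the fit gave 5 lower without 4-week library 1. The vesicle fusion gene Vamp2 had 292 and 565 CPM in the mock libraries and 1767 and 1793 CPM at 4 weeks (log2 fold change 2.06 ± 0.42 (SE), edgeR adjusted p = 0.00325). It did not pass with the length offset (0.66, adjusted p = 0.105). Its relative Vamp1 had 8.14 and 14.4 CPM in the mock libraries and 93.7 and 89.3 CPM at 4 weeks (log2 fold change 3.03 ± 0.37 (SE), edgeR adjusted p = 0.000124). Dnm1, the neuronal dynamin of vesicle retrieval, had 3.2 and 2.5 CPM in the mock libraries and 17.7 and 17.7 CPM at 4 weeks (log2 fold change 2.62 ± 0.35 (SE), edgeR adjusted p = 0.000199), and the vesicle calcium sensor gene Syt4 rose by 3.27 on the log2 scale (edgeR adjusted p = 2.8e-05).

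Genes that define dopamine neurons were at or near 0 at 4 weeks. Th had 0.217 and 0.321 CPM in the mock libraries and 0.138 and 0.402 CPM at 4 weeks, a few reads a library, and the groups overlapped (log2 fold change 0.03 ± 1.03 (SE), edgeR adjusted p = 0.988). Slc6a3 had no read in any of the 4 libraries, Pitx3, Foxa2 and Lmx1a had no read at 4 weeks, and the vesicular monoamine transporter gene Slc18a2 had 1.25 and 1.09 CPM in the mock libraries and 0 and 0.268 CPM at 4 weeks (edgeR adjusted p = 0.0542). Slc18a2 passed as a fall on the total-read scale (-3.83, adjusted p = 0.0176) and with the length offset (-3.38, adjusted p = 0.0357). Drd2, the dopamine autoreceptor gene, had 0.922 and 1.09 CPM in mock and no read at 4 weeks, at least 4.9-fold lower against 3 reads over the group. Nr4a2, a regulator of dopamine neurons, stayed below 1 CPM in all 4 libraries (log2 fold change 0.34 ± 0.54 (SE), edgeR adjusted p = 0.644). Ddc, the decarboxylase of dopamine synthesis, had 0.163 and 0.0642 CPM in the mock libraries and 0.414 and 0.402 CPM at 4 weeks and was too low to be tested.

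Several genes that dopamine neurons share with other cells did rise. Ret, the GDNF receptor tyrosine kinase (chromosome 6, 118151745 to 118197718, minus strand), had 0 and 0.128 CPM in the mock libraries and 15.5 and 14.7 CPM at 4 weeks (edgeR adjusted p = 8.56e-07). With 2 reads in the mock libraries together, the ratio was 257-fold higher (interval 70.2 to 2133), an exact 95% interval that covers counting error only, as do the other intervals given. Gfra1, its GDNF-binding partner, rose from 11.7 and 15.5 CPM to 32.5 and 32.4 CPM (log2 fold change 1.25 ± 0.18 (SE), edgeR adjusted p = 0.000314). Aldh1a1, a retinaldehyde dehydrogenase of ventral dopamine neurons and of some glia, had 30.3 and 49.3 CPM in the mock libraries and 859 and 886 CPM at 4 weeks (log2 fold change 4.45 ± 0.28 (SE), edgeR adjusted p = 1.11e-06). En1, a homeobox gene of the mid-hindbrain, had 1.14 and 1.73 CPM in the mock libraries and 10.5 and 8.44 CPM at 4 weeks (log2 fold change 2.72 ± 0.41 (SE), edgeR adjusted p = 0.000446), while Lmx1b, Foxa1 and Otx2, other patterning factors, rose by 1.49, 2.68 and 0.99 on the log2 scale. On the total-read scale Gfra1 (0.40, adjusted p = 0.0769), Lmx1b (0.63, adjusted p = 0.114) and Otx2 (0.12, adjusted p = 0.711) did not pass. Lmx1b did not pass with the length offset either (0.72, adjusted p = 0.168), nor Foxa1 with 1 library left out (adjusted p = 0.0529 without 4-week library 1). Maob, which breaks down dopamine in astrocytes, rose by 1.53 (edgeR adjusted p = 0.00049; on the total-read scale 0.66, adjusted p = 0.057). Of 20 of 30 dopaminergic and midbrain genes tested, 9 rose, 2 fell and 9 did not pass, with a median of 1.19. 4 rose and 5 fell on the total-read scale. 6 of the 30 listed genes had no read at 4 weeks.

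Neuropeptide genes were among the largest rises of the comparison. Sst, which encodes somatostatin (chromosome 16, 23889573 to 23890958, minus strand), had 0.271 and 0.193 CPM in the mock libraries and 73.8 and 81 CPM at 4 weeks (log2 fold change 8.29 ± 0.49 (SE), edgeR adjusted p = 6.77e-07). Penk, the enkephalin precursor gene, had 0.488 and 0.449 CPM in the mock libraries and 28 and 27.3 CPM at 4 weeks (log2 fold change 5.84 ± 0.29 (SE), edgeR adjusted p = 3.1e-07). Stc1, which encodes the secreted glycoprotein stanniocalcin, had 3.15 and 2.7 CPM in the mock libraries and 184 and 189.9 CPM at 4 weeks (log2 fold change 5.99 ± 0.23 (SE), edgeR adjusted p = 1.06e-07). For these genes the mock libraries held a few CPM at most, and both 4-week libraries were well above them. Nts, the neurotensin gene, had no read in mock and was at least 32.4-fold higher at 4 weeks, against 3 reads over the 2 mock libraries. Cartpt was 187-fold higher (interval 32.7 to 7489) and the granin gene Scg2 67.1-fold higher (interval 17.8 to 567). Of 20 of 27 neuropeptide and granin genes tested, 9 rose, 2 fell and 9 did not pass, with a median of 1.24. 8 rose and 6 fell on the total-read scale, and the fit gave 1 lower without mock library 1, 1 lower without 4-week library 1 and 1 lower without 4-week library 2.

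Among GABAergic genes, Gad1, the peptide genes Sst and Cck and the calcium buffer genes Calb2 and Pvalb rose, while Gad2 and the lineage regulators Dlx1, Dlx2, Dlx5, Dlx6 and Tal1 fell. Gad1, the main GABA-synthesis enzyme gene, rose from 4.45 and 4.94 CPM to 16.2 and 17.5 CPM (log2 fold change 1.84 ± 0.19 (SE), edgeR adjusted p = 4.04e-05). Its partner Gad2 fell from 2.17 and 2.18 CPM to 0.691 and 0.402 CPM (log2 fold change -1.97 ± 0.55 (SE), edgeR adjusted p = 0.0151; adjusted p = 0.05 without 4-week library 1 and 0.118 without 4-week library 2). Calb2, the calretinin gene, had 1.79 and 2.31 CPM in the mock libraries and 53.2 and 55.2 CPM at 4 weeks (log2 fold change 4.72 ± 0.30 (SE), edgeR adjusted p = 1.06e-06), and Pvalb, the parvalbumin gene, rose by 1.96 on the log2 scale (with the length offset 0.58, adjusted p = 0.186). Dlx1, a homeobox regulator of GABAergic neurons, had 13.8 and 22 CPM in the mock libraries and 1.38 and 2.54 CPM at 4 weeks (log2 fold change -3.17 ± 0.39 (SE), edgeR adjusted p = 0.000119). Of 16 of 21 GABAergic genes tested, 5 rose, 6 fell and 5 did not pass, with a median of -0.82. 5 rose and 10 fell on the total-read scale, and the fit gave 2 lower without 4-week library 1 and 3 lower without 4-week library 2. The vesicular GABA transporter gene Slc32a1 had no read at 4 weeks, and neither did the vesicular glutamate transporter gene Slc17a6, which had none in mock either.

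Glutamatergic genes gave counts close to the background. Of 15 of 22 tested, 3 rose, 3 fell and 9 did not pass, with a median of -0.16. 1 rose and 8 fell on the total-read scale, and the fit gave 1 higher without mock library 1, 1 higher without mock library 2, 0 higher without 4-week library 1 and 1 higher without 4-week library 2. Gria1, an AMPA receptor subunit gene, rose by 0.91 (edgeR adjusted p = 0.00528; adjusted p = 0.0561 without 4-week library 1; on the total-read scale 0.03, adjusted p = 0.886). Among neurotransmitter receptor genes, 7 rose, 7 fell and 11 did not pass of 25 of 39, with a median of -0.30. 4 rose and 11 fell on the total-read scale, and the fit gave 4 higher and 3 lower without 4-week library 1. Gabra5, a GABA-A receptor subunit gene, went from 0.597 and 1.03 CPM to 48.6 and 54.1 CPM (log2 fold change 5.98 ± 0.35 (SE), edgeR adjusted p = 6.68e-07), Gabbr1, a GABA-B receptor gene, rose by 1.61, and Chrna4, a nicotinic receptor subunit gene, fell by 3.06 on the log2 scale. Among voltage-gated and potassium channel genes, 4 rose, 5 fell and 16 did not pass of 25 of 33, with a median of 0.20. 2 rose and 8 fell on the total-read scale, and the fit gave 3 lower without 4-week library 2. The potassium leak channel gene Kcnk1 had the largest of these rises, from 57 and 70.6 CPM to 921 and 961 CPM (log2 fold change 3.88 ± 0.21 (SE), edgeR adjusted p = 4.17e-07). Kcnj10, the inward rectifier of astrocytes, rose by 1.11 (edgeR adjusted p = 0.0362; adjusted p = 0.2 without mock library 1, 0.0988 without 4-week library 1 and 0.154 without 4-week library 2; on the total-read scale 0.28, adjusted p = 0.369; with only the groups compared 1.11, adjusted p = 0.0516).

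Most neurogenic transcription factor genes fell. Of 13 of 23 tested, 0 rose, 11 fell and 2 did not pass, with a median of -2.05. Against the 0 that rose by edgeR, 1 (Pax6) was higher at an unadjusted p under 0.05 and 0 by DESeq2. The fit gave 1 higher without mock library 2 and 7 lower without 4-week library 1. Sox11, a factor of young neurons, had 66.9 and 49.2 CPM in the mock libraries and 5.66 and 3.48 CPM at 4 weeks (log2 fold change -3.67 ± 0.29 (SE), edgeR adjusted p = 4.74e-06). It was expressed in both mock libraries and several-fold lower in each 4-week library. Neurod1, Neurog1, Neurog2 and Atoh1 had no read in any of the 4 libraries.

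Progenitor and Notch genes fell more often than they rose. Of 24 of 26 tested, 3 rose, 12 fell and 9 did not pass, with a median of -1.42. 1 rose and 19 fell on the total-read scale, and the fit gave 5 higher without mock library 2. Nes, the intermediate filament of neural progenitors, had 101 and 81.4 CPM in the mock libraries and 6.77 and 8.84 CPM at 4 weeks (log2 fold change -3.55 ± 0.23 (SE), edgeR adjusted p = 1.44e-06). The Notch ligand gene Dll3 had 37.1 and 65.3 CPM in the mock libraries and 3.04 and 1.74 CPM at 4 weeks (log2 fold change -4.42 ± 0.49 (SE), edgeR adjusted p = 5.98e-05), and Prom1, which encodes the progenitor surface protein CD133, fell by 2.78 on the log2 scale. Sox2, a progenitor factor, fell by 1.65 and Notch1, a receptor, by 1.43 (with the length offset -1.14, adjusted p = 0.0644). Vim, the vimentin gene, fell from 3135 and 3831 CPM to 1378 and 1539.5 CPM (log2 fold change -1.26 ± 0.21 (SE), edgeR adjusted p = 0.000927), but with the length offset its sign turned (0.14, adjusted p = 0.767).

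Genes of dividing cells fell. Of 30 mitosis and spindle genes tested, 29 fell, Ndc80 did not pass (log2 fold change -1.61 ± 0.74 (SE), edgeR adjusted p = 0.107; on the total-read scale -2.49, adjusted p = 0.0255; with the length offset -3.06, adjusted p = 0.0156) and 0 rose, with a median of -3.62, or -3.56 with the 3 genes that had no read at 4 weeks set to their bounds. Mki67, the proliferation marker, had 37.1 and 36 CPM in the mock libraries and 1.24 and 0.402 CPM at 4 weeks (log2 fold change -5.46 ± 0.44 (SE), edgeR adjusted p = 5.76e-06). Top2a, the topoisomerase of mitotic chromosomes, had 138 and 134 CPM in the mock libraries and 4.7 and 4.42 CPM at 4 weeks (log2 fold change -4.89 ± 0.20 (SE), edgeR adjusted p = 1.19e-07). Ccna2, the cyclin of S phase and mitosis, had 22.8 and 36.7 CPM in the mock libraries and 1.24 and 0.937 CPM at 4 weeks (log2 fold change -4.75 ± 0.45 (SE), edgeR adjusted p = 2.16e-05). The groups were separated by more than 10-fold in all 3. Of 30 DNA replication genes, 0 rose, 18 fell and 12 did not pass, with a median of -2.04. In both lists edgeR gave 0 higher at an unadjusted p under 0.05, and DESeq2 gave 0. Tk1, Mcm5 and Lig1, which make thymidine phosphate, unwind DNA and join its strands, fell by 4.60, 3.29 and 2.88 on the log2 scale.

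The stretch before the start site of such genes often carries the letters TTTGAA, the core of the cell-cycle homology region through which mitotic genes are repressed in resting cells, together with CCAAT boxes. The 200 bases before the RefSeq start sites (GRCm38.p6) of Top2a, chr11:99024190-99024389 (minus strand), and Mki67, chr7:135716380-135716579 (minus strand), are shown because these members fell together. Capitals mark TTTGAA and CCAAT on either strand, and no 2 matches overlap.
Top2a: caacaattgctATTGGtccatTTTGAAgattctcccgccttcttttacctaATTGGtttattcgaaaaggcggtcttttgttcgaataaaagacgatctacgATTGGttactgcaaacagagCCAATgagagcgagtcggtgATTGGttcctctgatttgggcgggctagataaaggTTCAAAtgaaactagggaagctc
Mki67: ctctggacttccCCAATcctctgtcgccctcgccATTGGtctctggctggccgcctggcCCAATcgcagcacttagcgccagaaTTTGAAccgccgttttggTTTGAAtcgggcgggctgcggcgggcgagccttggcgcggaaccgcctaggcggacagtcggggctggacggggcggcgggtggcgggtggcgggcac
Of 24 mitosis genes that fell and have a promoter in the table, 9 held TTTGAA (37.5%) and 19 held CCAAT (79.2%) in this window. Over the 10663 tested genes with a promoter the shares were 9.61% and 36.6%. TTTGAA and CCAAT occurred together, as in the stretches printed, in 8 of the 24 (33.3%) and in 4.02% of the 10663. A match is a description of the letters and not a bound site.

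Most microglial RNAs fell to near the limit of detection. Of 21 of 22 microglia and myeloid markers tested, 0 rose, 19 fell and 2 did not pass, with a median of -6.25, or -5.80 with the genes at 0 set to their bounds. Their summed level was 2841 and 3757 CPM in mock and 178 and 173 CPM at 4 weeks, and per 1000000 total reads 4651 and 5145 in mock and 146 and 143 at 4 weeks. The fit gave 1 higher without mock library 1 and 1 higher without mock library 2. Against the 0 that rose by edgeR, 2 were higher at an unadjusted p under 0.05 and 0 by DESeq2. Ctss, a lysosomal protease of microglia (chromosome 3, 95526786 to 95556403, plus strand), had 18.3 and 37.9 CPM in mock and no read at 4 weeks, at least 134-fold lower against 3 reads over the group. Fcrls, a microglial receptor-like gene, had 113 and 159 CPM in the mock libraries and 0.138 and 0.134 CPM at 4 weeks, or 984-fold lower (interval 272 to 8130) by summed reads. The complement gene C1qc went from 95.2 and 95.7 CPM to 0.414 and 0.402 CPM, and C1qa from 142 and 108 CPM to 1.11 and 0.402 CPM (log2 fold changes -7.83 ± 0.39 (SE) and -7.36 ± 0.42 (SE)). The 2 members that did not fall were P2ry12, with 1.46 and 3.72 CPM in the mock libraries and 5.8 and 5.22 CPM at 4 weeks (log2 fold change 1.10 ± 0.47 (SE), edgeR adjusted p = 0.0856), and Olfml3, which was slightly higher in CPM in both 4-week libraries (log2 fold change 0.50 ± 0.23 (SE), edgeR adjusted p = 0.102) and had the opposite sign on the total-read scale (-0.39, adjusted p = 0.241).

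Most extracellular matrix genes fell. Of 29 of 30 matrix genes tested, 2 rose, 22 fell and 5 did not pass, with a median of -2.49. Bgn, the proteoglycan biglycan, had 188 and 83.9 CPM in the mock libraries and 2.21 and 1.34 CPM at 4 weeks (log2 fold change -6.25 ± 0.55 (SE), edgeR adjusted p = 1.1e-05). Eln, the elastin gene, had 107 and 102 CPM in the mock libraries and 3.45 and 4.42 CPM at 4 weeks (log2 fold change -4.73 ± 0.36 (SE), edgeR adjusted p = 4.37e-06). Postn, the periostin gene, fell by 4.74, and the collagen genes Col1a1 and Col1a2 by 3.23 and 2.78 on the log2 scale.

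Contractile genes fell as well, within a list that divided. Of 19 of 21 fibroblast, pericyte and smooth muscle markers tested, 7 rose, 10 fell and 2 did not pass, with a median of -2.25. 3 rose and 12 fell on the total-read scale. The smooth muscle actin gene Acta2 had 862 and 670.1 CPM in the mock libraries and 7.88 and 9.24 CPM at 4 weeks (log2 fold change -6.48 ± 0.26 (SE), edgeR adjusted p = 1.19e-07), and Tagln, an actin-binding protein gene, fell by 6.59 on the log2 scale. Other markers of this list went up. Fbln1, the fibulin gene, had 46.9 and 78.4 CPM in the mock libraries and 538 and 495 CPM at 4 weeks (log2 fold change 3.04 ± 0.31 (SE), edgeR adjusted p = 3.57e-05), Dcn, the decorin gene, rose by 1.60 (on the total-read scale 0.71, adjusted p = 0.0519), and Rgs5, a pericyte marker, rose by 3.11 from below 1 CPM.

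Of 21 of 24 ependymal and choroid plexus markers tested, 4 rose, 12 fell and 5 did not pass, with a median of -1.90. The 12 that fell are all cilium genes, and the 4 that rose were Ttr, Folr1, Otx2 and Tmem212, of which Otx2 did not pass on the total-read scale. Foxj1, the regulator of motile cilia, had 49.4 and 27.9 CPM in the mock libraries and 4.14 and 4.15 CPM at 4 weeks (log2 fold change -3.22 ± 0.44 (SE), edgeR adjusted p = 0.00024), and the cilium gene Pifo fell by 3.13 (edgeR adjusted p = 0.00928; adjusted p = 0.066 without mock library 1 and 0.0857 without 4-week library 1). Ttr, the transthyretin gene of the choroid plexus, had 1.3 and 1.22 CPM in the mock libraries and 32.7 and 31.9 CPM at 4 weeks (log2 fold change 4.66 ± 0.24 (SE), edgeR adjusted p = 3.63e-07), and Folr1, a folate receptor gene, rose by 2.47 on the log2 scale.

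Oligodendrocyte markers were near the background counts: of 15 of 22 tested, 4 rose, 4 fell and 7 did not pass, with a median of 0.15. 3 rose and 7 fell on the total-read scale. Bcas1 had 0.488 and 1.41 CPM in the mock libraries and 19.6 and 19.7 CPM at 4 weeks (log2 fold change 4.39 ± 0.41 (SE), edgeR adjusted p = 1.88e-05), Sox10, the lineage factor, rose from 3.09 and 4.69 CPM to 18.8 and 19.6 CPM, and the myelin proteolipid gene Mal fell by 2.72 on the log2 scale. Of the 22 listed markers 6, among them the myelin gene Mog, had no read at 4 weeks. Endothelial markers were low in both groups, at a summed 30.5 and 38.3 CPM in mock and 32.2 and 32.9 CPM at 4 weeks, or per 1000000 total reads 50.0 and 52.4 in mock and 26.4 and 27.2 at 4 weeks. Of 8 of 14 tested, 1 rose, 2 fell and 5 did not pass. 0 rose and 2 fell on the total-read scale, and the fit gave 1 lower without 4-week library 2. The receptor gene Kdr fell by 1.66 and the transporter gene Slco1a4 rose by 1.18, which did not pass on the total-read scale or with the length offset (0.30, adjusted p = 0.476 and 0.65, adjusted p = 0.197).

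Interferon-response genes rose in part. Of 24 of 28 tested, 12 rose, 1 fell and 11 did not pass, with a median of 0.94. 9 rose and 3 fell on the total-read scale, and the fit gave 0 lower without mock library 1, 0 lower without 4-week library 1 and 0 lower without 4-week library 2. Ifit1, an RNA-binding antiviral protein gene (chromosome 19, 34640871 to 34650009, plus strand), had 3.69 and 3.02 CPM in the mock libraries and 83.2 and 86.4 CPM at 4 weeks (log2 fold change 4.65 ± 0.21 (SE), edgeR adjusted p = 1.57e-07). Ifit3, its partner, had 11.8 and 15.5 CPM in the mock libraries and 104 and 104 CPM at 4 weeks (log2 fold change 2.93 ± 0.24 (SE), edgeR adjusted p = 5.84e-06), and its reads are uncertain because 24% of the 31-base words of its last 500 bases also occur in another gene. Usp18, which removes ISG15 from proteins, had 0.922 and 2.18 CPM in the mock libraries and 16.2 and 18.6 CPM at 4 weeks (log2 fold change 3.50 ± 0.38 (SE), edgeR adjusted p = 4.78e-05). Both 4-week libraries lay well above both mock libraries for all 3. Rtp4, Oasl2, Rsad2 and Irf7 rose by 3.07, 3.01, 2.29 and 2.08 on the log2 scale. Members without a change past the threshold include the signalling gene Irf9 (log2 fold change 0.46 ± 0.23 (SE), edgeR adjusted p = 0.141), which passed with the opposite sign on the total-read scale (-0.39, adjusted p = 0.0488). Ifit2, the member that fell, had 5.7 and 2.31 CPM in the mock libraries and 0.414 and 0.803 CPM at 4 weeks (log2 fold change -2.69 ± 0.75 (SE), edgeR adjusted p = 0.0155; adjusted p = 0.0894 without mock library 1, 0.118 without 4-week library 1 and 0.0605 without 4-week library 2), and Isg15, a ubiquitin-like modifier gene, had at most 1 read in any of the 4 libraries.

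The 200 bases before the RefSeq start sites of Ifit1, chr19:34640689-34640888 (plus strand), Ifit3, chr19:34583329-34583528 (plus strand), and Rsad2, chr12:26456453-26456652 (minus strand), are printed because these genes rose together and are known targets of the factor ISGF3. Capitals mark the core of its response element, GAAA and a further GAAA with 2 bases between them, which reads as TTTC and TTTC on the strand printed.
Ifit1: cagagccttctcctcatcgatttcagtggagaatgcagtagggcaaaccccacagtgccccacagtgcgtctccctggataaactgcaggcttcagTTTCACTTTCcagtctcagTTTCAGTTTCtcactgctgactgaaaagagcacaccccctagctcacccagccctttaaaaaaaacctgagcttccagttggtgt
Ifit3: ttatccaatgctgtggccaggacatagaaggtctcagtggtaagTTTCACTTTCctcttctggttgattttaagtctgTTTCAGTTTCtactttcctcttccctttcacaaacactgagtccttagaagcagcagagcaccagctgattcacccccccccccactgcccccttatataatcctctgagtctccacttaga
Rsad2: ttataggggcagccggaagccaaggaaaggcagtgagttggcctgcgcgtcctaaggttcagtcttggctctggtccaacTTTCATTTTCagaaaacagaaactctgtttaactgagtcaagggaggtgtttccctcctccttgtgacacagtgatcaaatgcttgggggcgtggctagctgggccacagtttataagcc
The core occurs in 5 of 9 interferon-list genes that rose and have a promoter in the table (55.6%), searched on both strands. It occurs in 7 of the 17 interferon-list genes tested that have one, whichever way they moved (41.2%), and in 2.36% of the 10663 tested genes with a promoter.

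Of 19 of 20 MHC class I antigen presentation genes tested, 8 rose, 1 fell and 10 did not pass, with a median of 0.54. The rises ran from 0.60 for B2m, the light chain gene, to 3.39 for Nlrc5, a regulator of class I genes. 2 rose and 6 fell on the total-read scale, and the fit gave 4 higher without 4-week library 1 and 3 higher and 2 lower without 4-week library 2. H2-D1 had 33.4 and 56 CPM in the mock libraries and 99.2 and 105 CPM at 4 weeks (log2 fold change 1.19 ± 0.26 (SE), edgeR adjusted p = 0.00481), and H2-K1 rose by 1.17 (edgeR adjusted p = 0.0129; adjusted p = 0.0814 without mock library 1, 0.0554 without 4-week library 1 and 0.0711 without 4-week library 2). Neither passed on the total-read scale, where H2-D1 changed by 0.35, adjusted p = 0.117 and H2-K1 by 0.33, adjusted p = 0.193. The rise of B2m (edgeR adjusted p = 0.0349; adjusted p = 0.15 without mock library 2, 0.179 without 4-week library 1 and 0.0967 without 4-week library 2) did not pass with only the groups compared (0.59, adjusted p = 0.101), and had the opposite sign on the total-read scale (-0.29, adjusted p = 0.362). The folding enzyme gene Pdia3 was the member that fell, by 2.38. Class I genes share sequence with near copies, so the split of reads between them is uncertain.

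Genes of reactive astrocytes divided, with large rises in a few. Lcn2, the iron-binding lipocalin of reactive astrocytes (chromosome 2, 32384633 to 32388252, minus strand), had 23.5 and 17.5 CPM in the mock libraries and 3429.5 and 3303 CPM at 4 weeks (log2 fold change 7.36 ± 0.27 (SE), edgeR adjusted p = 1e-07). The complement gene C3 had 106 and 154 CPM in the mock libraries and 2879.7 and 2913 CPM at 4 weeks (log2 fold change 4.48 ± 0.28 (SE), edgeR adjusted p = 1.11e-06). Aspg, an asparaginase gene, had 17 and 24.1 CPM in the mock libraries and 434 and 391 CPM at 4 weeks (log2 fold change 4.33 ± 0.34 (SE), edgeR adjusted p = 4.74e-06). All 3 were more than 10-fold above mock in both 4-week libraries. Other members of the same list fell: Hspb1, a small heat-shock protein gene, by 3.60, Serping1, the C1 inhibitor gene, by 0.97 (with the length offset -0.03, adjusted p = 0.913) and Cd44, a hyaluronan receptor gene, by 1.43 on the log2 scale. Serpina3n had 2086 and 3000 CPM in the mock libraries and 1681 and 1695 CPM at 4 weeks (log2 fold change -0.59 ± 0.28 (SE), edgeR adjusted p = 0.122), and passed as a fall on the total-read scale (-1.44, adjusted p = 5.52e-05). Of 31 of 35 tested, 10 rose, 9 fell and 12 did not pass, with a median of -0.20. 7 rose and 17 fell on the total-read scale.

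**Figure D3:**
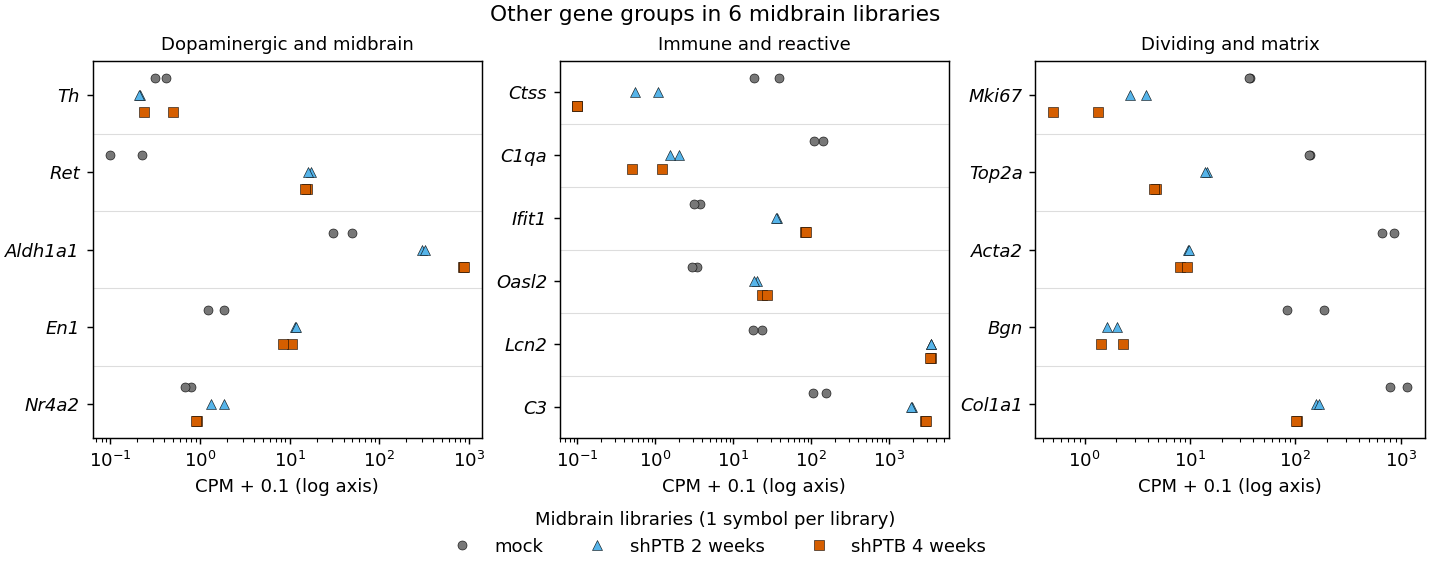
CPM (plus 0.1, log axis) of dopaminergic, immune, reactive, dividing-cell and matrix genes in the 6 midbrain libraries, with mock as circles, 2 weeks as triangles and 4 weeks as squares. Th stays below 1 CPM, Ret and Lcn2 are at their shPTB level by 2 weeks, and Ctss has no read in either 4-week library.

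All 13 mitochondrially encoded protein genes rose, with a median of 2.12. None fell by edgeR, with 0 lower at an unadjusted p under 0.05 and 0 by DESeq2. On the total-read scale 12 of 13 kept their direction and mt-Atp8 turned (-0.20, adjusted p = 0.277). The range ran from mt-Atp8 (0.68, edgeR adjusted p = 0.0357; adjusted p = 0.0734 without mock library 1, 0.0977 without mock library 2, 0.131 without 4-week library 1 and 0.149 without 4-week library 2) to mt-Nd4l (5.27), which is uncertain because 98.9% of its 3′ end is found in another gene too. The oxidase gene mt-Co1 had 1539 and 2031 CPM in the mock libraries and 4619.6 and 4536 CPM at 4 weeks (log2 fold change 1.36 ± 0.24 (SE), edgeR adjusted p = 0.00121). mt-Nd3, whose 3′ end is likewise not its own, rose by 3.20, and mt-Nd6 rose by 3.62 but not past the threshold with the length offset (0.46, adjusted p = 0.425). Nuclear genes of the respiratory chain rose more often than they fell, where 18.7% of all tested genes rose and 20.4% fell. Of 35 of 35 tested, 10 rose, 1 fell and 24 did not pass, with a median of 0.10. 2 rose and 14 fell on the total-read scale, and the fit gave 6 higher and 0 lower without 4-week library 1, 6 higher without 4-week library 2, 0 lower without mock library 1 and 3 lower without mock library 2. Ndufa5, Cox7a2 and Ndufa2 rose by 1.98, 1.21 and 1.13, the last of them not in every fit (adjusted p = 0.181 without mock library 1, 0.145 without 4-week library 1 and 0.0911 without 4-week library 2; on the total-read scale 0.30, adjusted p = 0.332; with only the groups compared 1.13, adjusted p = 0.0509).

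Cytosolic ribosomal protein genes mostly did not pass: 5 rose, 1 fell and 29 did not pass of 35 of 35, with a median of -0.04. 1 rose and 21 fell on the total-read scale, and the fit gave 3 higher and 0 lower without mock library 1, 8 higher and 9 lower without mock library 2, 2 higher and 0 lower without 4-week library 1 and 3 higher and 0 lower without 4-week library 2. Rpl5 stood out, with 1.46 and 5.2 CPM in the mock libraries and 175 and 171 CPM at 4 weeks (log2 fold change 5.72 ± 0.69 (SE), edgeR adjusted p = 0.000101), a change far outside the rest of its list. None of its 3′ end is shared with another gene, but only that end was searched. Whether the reads were rightly assigned to Rpl5 was not tested, so its change is uncertain. Rps2 fell by 1.27 (edgeR adjusted p = 0.0227; adjusted p = 0.223 without mock library 1, 0.0801 without 4-week library 1 and 0.139 without 4-week library 2; with the length offset -0.61, adjusted p = 0.164) and Rps18 rose by 0.80 (edgeR adjusted p = 0.00616; adjusted p = 0.0603 without 4-week library 1), with the opposite sign on the total-read scale (-0.06, adjusted p = 0.678). Both are uncertain, since Rps2 shares 92.3% and Rps18 74.5% of their 3′ ends with other genes.

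Glycolysis and hypoxia genes gave 8 rises and 5 falls among 28 tested, with a median of -0.09. 4 rose and 17 fell on the total-read scale, and the fit gave 5 higher and 3 lower without 4-week library 1, 9 lower without mock library 2 and 3 lower without 4-week library 2. The hypoxia-induced carbonic anhydrase gene Car9 had 2.71 and 4.24 CPM in the mock libraries and 22.9 and 26.4 CPM at 4 weeks (log2 fold change 2.83 ± 0.31 (SE), edgeR adjusted p = 5.62e-05). Slc2a1, the glucose transporter gene, rose from 14.9 and 30.4 CPM to 121 and 131 CPM (log2 fold change 2.48 ± 0.37 (SE), edgeR adjusted p = 0.000421), and Pfkm, a phosphofructokinase gene, by 1.85. Amino acid transporters led the stress-response list, in which 9 rose, 8 fell and 12 did not pass of 29 of 30 (median 0.08). 3 rose and 16 fell on the total-read scale, and the fit gave 5 lower without 4-week library 1 and 5 lower without 4-week library 2. Slc7a11, which imports cystine, had 4.39 and 3.79 CPM in the mock libraries and 30.7 and 31.5 CPM at 4 weeks (log2 fold change 2.92 ± 0.22 (SE), edgeR adjusted p = 3.87e-06), and its heavy chain gene Slc3a2 had 398 and 895 CPM in the mock libraries and 3023 and 3112 CPM at 4 weeks (log2 fold change 2.25 ± 0.45 (SE), edgeR adjusted p = 0.00273). Slc7a5, the other partner of that chain, rose by 1.82. The serine and folate enzyme genes Phgdh, Psat1 and Mthfd2 in the same list fell by 1.60, 1.10 and 1.63, and the fall of Psat1 did not pass in every fit (adjusted p = 0.058 without mock library 2, 0.0769 without 4-week library 1 and 0.0572 without 4-week library 2).

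Cholesterol genes gave 4 rises and 8 falls among 29, with a median of -0.10. 1 rose and 17 fell on the total-read scale, and the fit gave 2 higher and 5 lower without 4-week library 2, 5 lower without mock library 1 and 3 lower without 4-week library 1. Insig1, a brake on sterol synthesis, rose by 2.11 (edgeR adjusted p = 0.000135), and Abca1, which exports cholesterol, fell by 1.60 (edgeR adjusted p = 0.000128). Srebf1, a lipid regulator, fell by 1.19, which did not pass with the length offset (-0.27, adjusted p = 0.387). Immediate early genes gave 4 rises and 6 falls among 15, with a median of 0.21. 1 rose and 7 fell on the total-read scale, and the fit gave 2 higher without mock library 1, 2 higher and 1 lower without 4-week library 1, 1 higher and 1 lower without 4-week library 2 and 3 lower without mock library 2. Jun fell by 1.97 (edgeR adjusted p = 8.92e-05). Fos fell by 0.92 (edgeR adjusted p = 0.0138; adjusted p = 0.0696 without mock library 2, 0.0738 without 4-week library 1 and 0.0949 without 4-week library 2), but its sign turned with the length offset (0.07, adjusted p = 0.894). Fosl2 rose by 0.97 (edgeR adjusted p = 0.0191; adjusted p = 0.113 without mock library 1, 0.0714 without 4-week library 1 and 0.102 without 4-week library 2; on the total-read scale 0.12, adjusted p = 0.6).

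The 8 largest rises over all protein-coding genes with at least 10 CPM included epithelial, transport and acute-phase genes. Sprr2b, a small proline-rich protein gene of epithelia, had no read in mock and 19.5 and 22 CPM at 4 weeks, at least 235-fold higher. Slc6a20a, an amino acid transporter gene of the meninges and choroid plexus, was 342-fold higher (interval 116 to 1662). Reg3g, a secreted lectin gene, had 0.38 and 0.835 CPM in the mock libraries and 128 and 115 CPM at 4 weeks (log2 fold change 7.65 ± 0.42 (SE), edgeR adjusted p = 4.34e-07). The transporter gene Slc22a8 was 182-fold higher (interval 61.5 to 888), and Orm2, an acute-phase protein gene, rose by 7.24, with 45.1% of its 3′ end shared with another gene. Sst, Ret and Lcn2 complete the 8. Of the 8 largest falls, 7 are genes of microglia and other leukocytes: Ctss, Fcrls, C1qc and C1qa, with the lysosomal nuclease gene Pld4, the purine receptor gene P2ry13 and the actin regulator gene Coro1a. Pld4 was at least 76-fold lower, P2ry13 248-fold lower (interval 44.3 to 9803) and Coro1a 188-fold lower (interval 33.7 to 7463).

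A test of the difference in response asked where the midbrain response at 4 weeks departed from that of cortex astrocytes under the same treatment. 278 genes were higher in the midbrain response relative to cortex (1.9% of those tested) and 94 lower (0.644%). The fit treats the mock libraries of the regions as independent, although those with the same number deviated together (r = 0.715). Its SEs and calls for this difference do not take that pairing into account. Of 24 interferon genes, 9 differed and all of these were relatively higher in midbrain, and the list's median log2 fold change was 0.94 in midbrain and -0.45 in cortex. Of 31 reactive genes, 10 differed, again all relatively higher in midbrain, with medians of -0.20 and -1.12. Both shares lie above the background, and the mock and 4-week libraries of midbrain enter this test as well as the contrast above. The number of genes called was 164 with only the groups compared, and 138 and 156 without cortex 4-week library 1 or 2, and 155 and 168 without midbrain 4-week library 1 or 2.

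Oasl2 changed by 3.01 in midbrain and -0.52 in cortex, a difference of 3.53 ± 0.33 (SE) (edgeR adjusted p = 0.00029). Ifit1 rose in both regions, by 4.65 in midbrain and 1.77 in cortex, with a difference of 2.88 ± 0.28 (SE) (edgeR adjusted p = 0.000361). Bst2, a membrane tether of viruses that did not change past the threshold in midbrain (log2 fold change -0.20 ± 0.22 (SE), edgeR adjusted p = 0.479), fell in cortex from 9.3 and 9.79 CPM to 0.733 and 0.576 CPM. In midbrain Bst2 passed as a fall on the total-read scale (-1.07, adjusted p = 0.00549) and with the length offset (-0.93, adjusted p = 0.0141). A positive difference thus covers a rise that cortex lacked, a larger rise, and a fall that was larger in cortex. Lcn2 and C3 belong to the larger rises (Lcn2 7.36 in midbrain and 4.33 in cortex, C3 4.48 in midbrain and 1.86 in cortex), while Serpina3n, Timp1 and Cd44 fell further in cortex than they changed in midbrain (Serpina3n -0.59 in midbrain and -3.56 in cortex, Timp1 0.12 in midbrain and -2.79 in cortex, Cd44 -1.43 in midbrain and -3.77 in cortex). The midbrain value of Timp1 passed as a fall on the total-read scale (-0.77, adjusted p = 0.0383) and as a rise with the length offset (1.80, adjusted p = 0.00069).

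Among protein-coding genes with at least 10 CPM in mock or 4-week midbrain, the largest positive differences belonged to Sprr2b, Reg3g, Glycam1, Car9 and Inmt. Reg3g had 6.45 and 10.9 CPM in cortex mock and 0.916 and 0.192 CPM in cortex at 4 weeks, where the midbrain went up (difference 11.56 ± 0.62 (SE)). Car9 had 5.35 and 6.29 CPM in cortex mock and 0.549 and 0 CPM at 4 weeks (difference 7.14 ± 0.62 (SE)). Inmt, a methyltransferase gene, had 1.52 and 3.66 CPM in the mock libraries and 298 and 283 CPM at 4 weeks in midbrain and 8.97 and 8.84 CPM in cortex at 4 weeks (difference 6.61 ± 0.51 (SE)). Glycam1, a mucin-like gene, rose by 2.06 in midbrain, and went from 17.2 and 15.2 CPM to 0.183 and 0.576 CPM in cortex. Sprr2b had at most 1 read in each cortex library of this contrast, so its fitted difference depends on the prior count and is no measure of size. Under the same limit the most negative differences belonged to Wnt8b, Col22a1, Kcnip1, Nkd1 and Slc7a11. Wnt8b, a Wnt ligand gene, changed by -1.92 in midbrain and 2.96 in cortex, and Nkd1, a Wnt feedback gene, by 0.12 in midbrain and 3.69 in cortex. Slc7a11 rose in both regions but less in midbrain (2.92 in midbrain and 6.06 in cortex). Col22a1 and the channel-interacting gene Kcnip1 had differences of -3.78 ± 0.36 (SE) and -3.75 ± 0.64 (SE), and that of Col22a1 did not pass with the length offset (-3.51, adjusted p = 0.156). The midbrain fall of Wnt8b itself did not pass with that offset (-0.34, adjusted p = 0.612), whereas Nkd1 passed as a rise with it (0.54, adjusted p = 0.0473) and as a fall on the total-read scale (-0.76, adjusted p = 0.00936). Without cortex 4-week library 1, Wnt8b (adjusted p = 0.0639) and Kcnip1 (0.0886) did not pass, nor did Kcnip1 without midbrain 4-week library 1 (0.0727).

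Neuronal and peptide genes also differed. Chgb changed by 4.63 in midbrain and 0.68 in cortex (edgeR adjusted p = 0.000161 for the difference), Sst by 8.29 in midbrain and 3.87 in cortex (edgeR adjusted p = 0.0271) and Penk by 5.84 in midbrain and 3.02 in cortex (edgeR adjusted p = 0.00574). Npy, the neuropeptide Y gene, went the other way, with -0.77 in midbrain and 2.53 in cortex (edgeR adjusted p = 0.00192). In midbrain Npy passed as a fall on the total-read scale (-1.66, adjusted p = 0.00622) and with the length offset (-1.70, adjusted p = 0.00705). Stmn2 fell in both regions, but less in midbrain (difference 1.57 ± 0.29 (SE)), and it was the only gene of the fixed set of 35 for which the difference passed. Some of these differences rested on single libraries. Penk did not pass without cortex mock library 1 (adjusted p = 0.0501), Sst not without cortex mock library 2 (2.24, adjusted p = 0.633), and neither Sst nor Stmn2 when any one 4-week library of either region was left out (adjusted p = 0.0725 to 0.0961 and 0.0518 to 0.116). Neither passed with the length offset (Sst 4.37, adjusted p = 0.0614, Stmn2 1.58, adjusted p = 0.259). For Ptbp1 the difference was 0.74 ± 0.29 (SE) (edgeR adjusted p = 0.274), for Ptbp2 -0.29 ± 0.36 (SE) and for Tubb3 -0.24 ± 0.43 (SE), none of which passed. The myelin gene Mbp, at 3.31 and 3.92 CPM in midbrain mock and 3.73 and 4.29 CPM at 4 weeks, rose in cortex and did not pass in midbrain (0.15 in midbrain and 4.67 in cortex; on the total-read scale in midbrain -0.71, adjusted p = 0.019; difference -4.52 ± 0.32 (SE)).

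**Figure D4:**
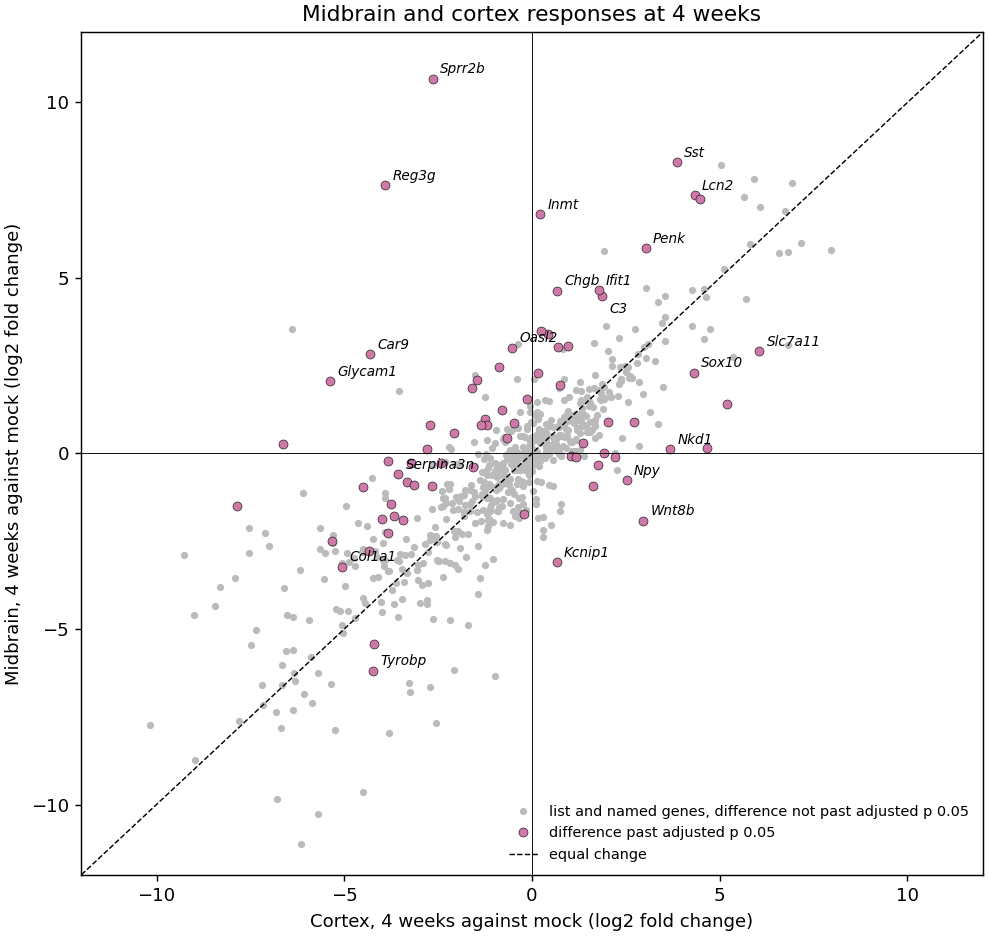
Log2 fold change at 4 weeks against mock in midbrain (vertical) against cortex (horizontal) for the list and named genes, with genes whose difference between regions passed the test in pink and equal change as a dashed line. Interferon, reactive and peptide genes such as Oasl2, Lcn2 and Sst lie above the line, and Wnt8b, Nkd1, Npy and Slc7a11 lie below it.

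Compared with the 2-week midbrain libraries, 140 genes were higher at 4 weeks (0.958%) and 248 lower (1.7%). This number depended on the fit: with only the 2 groups compared, which sets the wide spread of the mock libraries aside, 3903 passed (32.3%), of which 2036 were higher (16.8%) and 1867 lower (15.4%). With 1 of the 4 libraries left out, between 25 and 52 genes passed in all. Of the genes named here, the difference passed without any single library of the 2 groups for Dcx, Ccl3, Ptgds, Olfr1284, Olfr338 and Lyz2.

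Of 30 pan-neuronal genes tested between 2 and 4 weeks, 4 fell, 1 rose and 25 did not pass. Dcx had 7.58 and 13.1 CPM at 2 weeks and 1.24 and 0.803 CPM at 4 weeks (log2 fold change -3.33 ± 0.34 (SE), edgeR adjusted p = 0.00117). Tubb3 had 12.9 and 14.1 CPM and 4.42 and 3.08 CPM (log2 fold change -1.85 ± 0.32 (SE), edgeR adjusted p = 0.017). Elavl3 was at its mock level at 2 weeks, 29.2 and 27.3 CPM, and lower at 4 weeks (log2 fold change -2.02 ± 0.24 (SE), edgeR adjusted p = 0.00255). The astrocyte transporter gene Slc1a3 fell as well (log2 fold change -0.95 ± 0.17 (SE), edgeR adjusted p = 0.017), as did Top2a (log2 fold change -1.64 ± 0.19 (SE), edgeR adjusted p = 0.00245). With the length offset neither Slc1a3 (-0.75, adjusted p = 0.0688) nor Top2a (-2.25, adjusted p = 0.123) passed. Of the 21 microglia markers 6 were lower at 4 than at 2 weeks, among them the adaptor gene Tyrobp, which had 17.3 and 15.4 CPM at 2 weeks and 3.73 and 2.68 CPM at 4 weeks. Ccl3 and Clec4a1, a chemokine and a lectin receptor gene of myeloid cells, were among the 5 largest falls, at -4.04 and -3.06, both higher at 2 weeks (9.73 and 10.8 and 18.9 and 15.2 CPM) than in mock (4.07 and 6.87 and 2.6 and 5.07 CPM). The fall of Ccl3 did not pass with the length offset (-3.70, adjusted p = 0.101).

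Ptgds, Rlbp1 and Aldh1a1 rose between 2 and 4 weeks. Ptgds, the prostaglandin D synthase of the meninges and choroid plexus, had 509 and 542 CPM at 2 weeks and 2884 and 2751 CPM at 4 weeks (log2 fold change 2.42 ± 0.19 (SE), edgeR adjusted p = 0.000272). Rlbp1, a retinaldehyde-binding protein gene, had 90.4 and 89.5 CPM at 2 weeks and 368 and 352 CPM at 4 weeks (log2 fold change 2.00 ± 0.32 (SE), edgeR adjusted p = 0.0129). Aldh1a1 had 302 and 327 CPM at 2 weeks, before the level given above (log2 fold change 1.47 ± 0.25 (SE), edgeR adjusted p = 0.0166). Both of the last genes handle retinaldehyde, and neither overlapped between the times. Gmip, a GTPase-activating protein gene, Glycam1 and Resp18, an endocrine protein gene, rose by 3.18, 2.02 and 2.02 on the log2 scale. With the length offset Rlbp1 (2.12, adjusted p = 0.0634) and Resp18 (1.88, adjusted p = 0.242) did not pass, nor did Resp18 on the total-read scale (1.81, adjusted p = 0.0636). Ifit1 rose further as well (log2 fold change 1.24 ± 0.18 (SE), edgeR adjusted p = 0.00746), while Lcn2, Sst and Ret differed by -0.03, 0.08 and -0.14 and did not pass. The olfactory receptor gene Olfr1284 went from 8.83 and 11.4 CPM to 0.553 and 0 CPM between 2 and 4 weeks, and Olfr338 from 62.3 and 58.7 CPM to 7.32 and 7.63 CPM.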

How the data were processed

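Total RNA of mouse astrocytes was reverse transcribed from a biotinylated primer, the cDNA was isolated on streptavidin beads, and second strands were made with random primers, per the labels' protocols. The tools named are cutadapt 2.3, Salmon 0.14.1 and DESeq2, with mm10, per the submitters' processing notes. Which annotation release Salmon used is not stated there. The deposited tables give estimated counts and TPM per transcript as Salmon computed them. Those estimated counts, as the authors deposited them, were summed per gene with GENCODE M21 and rounded, which left out 0.0547 to 0.129% of the reads of a library on unmatched transcripts. TPM and effective lengths, as deposited, served only the average transcript length.

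Genes were tested in R 4.3.3 with edgeR 4.0.16: TMM scaling, filterByExpr (minimum count 10, minimum total 15), 1 quasi-likelihood fit over all 6 groups, and Benjamini-Hochberg adjustment over the genes tested, with a threshold of 0.05. The contrasts were midbrain 4 weeks against mock, its difference from the cortex contrast, and midbrain 4 weeks against 2 weeks, which share libraries. The alternatives were RLE and total-read scaling, no count filter or 5 CPM in 2 libraries, an offset for transcript length, the replicate number as a block, no mitochondrial genes, only the groups compared, each library left out, and DESeq2 1.42.0. After the data were seen, limma 3.58.1 with library weights and fits without both mock libraries of a number were added. No molecular identifiers are named in the protocols, so intervals (95%, exact) and the limit of 3 reads behind a 0 cover counting error only.

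Genes named are 35 fixed genes, the 3 largest passing changes of each of 30 lists, the 8 largest each way among protein-coding genes, and the 5 largest each way in the other contrasts, all at a mean of 10 CPM or more in the higher group, and for the main contrast with no overlap between groups, plus others as stated. Some genes that this rule picks are not reported here. Gene models named by number only were left out. The lists hold 774 genes, of which 48 are in over 1 list and 1 symbol had no match. A 3′ end is the final 500 bases of a gene's longest GENCODE transcript, searched in other genes by words of 31 bases. Members and lists were chosen with earlier results of these data known. Promoters are RefSeq sequences (GRCm38.p6). In simulated data with 14281 genes, 64 were changed by 1.5-fold, 67 by 2-fold and 63 by 4-fold. The fit of 4 weeks against mock recovered 0%, 2.98% and 52.4% of these. Far more genes, 5721, passed in the data, and with few changed genes the adjusted threshold is stricter. The shares therefore do not measure the sensitivity of the contrast reported.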

Additional observations from a re-analysis of the deposited data

Results flagged for a closer look

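For 45 named genes the response at 4 weeks differed between midbrain and cortex by the interaction test (edgeR adjusted p under 0.05). Values are midbrain minus cortex on the log2 scale, and a positive value covers a larger rise, a smaller fall or opposite changes. With 1 library left out, 26 to 42 of the 45 kept the call, the fewest without a 4-week library, and with only the groups compared 26 did. With the offset for transcript length 12 did not pass: Col22a1, Fbln1, Fos, Gria1, Lyz2, Orm2, Psmb8, Pvalb, Rsad2, Sox10, Sst and Stmn2.

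Interferon and antigen presentation genes had positive differences: Ifit1 (2.88), Usp18 (3.25), Rtp4 (2.11), Oasl2 (3.53), Irf7 (3.55), Rsad2 (2.14), Bst2 (3.63) and Psmb8 (1.34). The same held for reactive and secreted genes, with Lcn2 (3.02), C3 (2.62), Serpina3n (2.96), Timp1 (2.91), Cp (2.66), Cd44 (2.34), Serping1 (3.52), Orm2 (2.78), Reg3g (11.56), Sprr2b (13.33), Glycam1 (7.45), Inmt (6.61) and Car9 (7.14). Sprr2b had at most 1 read in each cortex library, so its fitted difference depends on the prior count. Matrix and stromal genes gave Col1a1 (1.84), Col1a2 (1.56), Sparc (1.88) and Fbln1 (2.35). Transport genes gave Aqp1 (6.91) and Folr1 (3.35). Aqp1, a water channel of the choroid plexus, had 4.18 and 5.26 CPM in the mock libraries and 6.49 and 4.95 CPM at 4 weeks in midbrain, and 18.6 and 20.9 CPM in mock and 0.183 and 0.192 CPM at 4 weeks in cortex. Neuronal, signalling and peptide genes gave Stmn2 (1.57), Chgb (3.95), Sst (4.42), Penk (2.82), Pvalb (1.20), Gfra1 (2.06) and Fos (1.73).

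Negative differences were found for the microglial genes Tyrobp (-1.95) and Lyz2 (-1.20), the oligodendrocyte genes Sox10 (-1.999) and Mbp (-4.52), and for Gria1 (-1.80), Npy (-3.30), Slc7a11 (-3.14), Wnt8b (-4.88), Col22a1 (-3.78), Kcnip1 (-3.75) and Nkd1 (-3.57).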

How the results depend on the processing

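For 4 weeks against mock, 5721 genes passed in all. Scaling to total reads gave 1090 higher and 7238 lower. The fit to only the groups compared gave 4370 calls, with 2031 higher and 2339 lower. Without both mock libraries numbered 2, 8884 passed, with 4249 higher and 4635 lower. Leaving out 1 library gave 3305 to 6170 calls, with 1762 to 2993 higher and 1543 to 3177 lower. The difference between regions, 372 genes, gave 754 without a count filter, 164 with only the groups compared, 1773 and 2077 without both mock libraries numbered 1 or 2, and 138 to 550 with 1 library left out. For 4 against 2 weeks, 388 genes, the counts were 860 without a count filter, 3903 with only the groups compared, 3379 with limma and library weights, and 25 to 52 with 1 library left out. The cause of these shifts was not tested. DESeq2 gave 5051, 437 and 510 calls. With the replicate block the counts were 6167, 428 and 459, and no named gene changed side. The replicate numbers do not pair the libraries of the main contrast, since their differences correlated at 0.00608 across genes. Of 173 named genes that passed, 22 lost the call or turned with total-read scaling and 21 with the length offset. The length offset also ended 12 of 45 named differences between regions and 14 of 32 named differences between 2 and 4 weeks. Among changes that passed in either fit, the sign turned on the total-read scale for Rps18 (-0.063, adjusted p = 0.678), Nkd1 (-0.76, adjusted p = 0.00936), Timp1 (-0.77, adjusted p = 0.0383), Cp (-0.28, adjusted p = 0.16), Psmb8 (-0.00111, adjusted p = 0.997), B2m (-0.29, adjusted p = 0.362), Mbp (-0.71, adjusted p = 0.019), mt-Atp8 (-0.20, adjusted p = 0.277) and Irf9 (-0.39, adjusted p = 0.0488), and with the length offset for Fos (0.071, adjusted p = 0.894), Cp (-0.21, adjusted p = 0.343), Vim (0.14, adjusted p = 0.767) and Rcor1 (0.17, adjusted p = 0.832). Among 60 list counts, 36 moved by over 1.5 times with total-read scaling and 0 with RLE factors. Of 32 named genes that passed between 2 and 4 weeks, 6 to 13 kept the call with 1 library left out. Changes below 4-fold were recovered poorly in the simulation, where far fewer genes changed than passed in the data. It does not give the sensitivity of the fit to the data.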
